A study of Mus musculus with 16 samples.

Results

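The genes described here are 10 components of the Notch pathway, namely the receptors Notch1 and Notch2, the ligands Dll1, Dll3 and Jag1, and the transcriptional repressors Hes1, Hes5, Hey1, Hey2 and Heyl. They were taken by symbol from the deposited count tables, as 10 of 26371 gene symbols listed at basal state and of 55304 listed for silenced cultures. The 10 were selected on earlier measured values of these data, among them the low Hes5 level with both hairpins at basal state. Values of the basal comparisons with control are therefore given below as a description, without a test of the 10 genes.

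Notch signalling passes between touching cells. A Delta or Jagged ligand on one cell binds a Notch receptor on its neighbour, ADAM proteases and the gamma-secretase complex cut the receptor, and the freed intracellular domain joins the DNA-binding protein RBPJ and a Mastermind coactivator to switch on Hes and Hey genes. In the developing cortex these repressors keep progenitors from becoming neurons by holding down proneural genes, while in mature brain tissue Notch receptors are also found in astrocytes, neurons and vessel cells.

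Poly(A) RNA came from primary cortical neurons of C57/BL6 mouse embryos at embryonic day 17.5 to 19.5, with the cortices of 1 litter pooled for each replicate. All cultures received an AAV carrying a short hairpin from day 8 to day 13 in vitro. The hairpins were shNup153-2 or shNup153-1, against the nuclear pore protein Nup153, or shControl. The basal groups held 2 libraries with shNup153-2, 2 with shNup153-1 and 4 with shControl, and the silenced groups held 3 libraries with shNup153-2 and 3 with shControl. Silenced cultures also received tetrodotoxin, a sodium channel blocker, at 1 to 2 µM from day 12 for 24 hours, and D-AP5, an NMDA receptor blocker, at 100 µM for the last 6 hours. The promoter driving the hairpin is not named in the labels, and all cells of a culture, whatever their type, were lysed together. Groups follow the sample titles, since the descriptions of knockdown samples mention the control virus.

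Levels are CPM values, counts scaled to a common library total with TMM factors over the 14 libraries, and library totals ran from 26863535 to 56299817 counts. Nup153 itself stood at 13.5 and 11.6 CPM with shNup153-2, at 17.1 and 28.0 CPM with shNup153-1 and at 52.9 to 94.5 CPM with shControl at basal state. In silenced cultures it stood at 9.38 to 13.4 CPM with shNup153-2 and 52.1 to 64.2 CPM with shControl. Per the labels, libraries were made only where Nup153 was reduced enough, so these levels also carry that selection. All 10 genes stand in the upper part of the basal table, where the shNup153-1 columns are in register with the gene symbols. Correlation of those columns with the shControl mean was 0.9675 and 0.974 up to line 16399 of that table, and 0.1007 and 0.098 below it. Markers for neurons were high in all 14 libraries, with 8 pan-neuronal genes summing to between 4287 and 8037 CPM at basal state. Astrocyte markers were also present in every library and differed widely between libraries, as given beside the receptors below.

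Of the 7 genes whose promoter windows were searched, Hes5 and Hey2 hold letters that match the RBPJ core, and their windows are shown because Hes5 lay furthest from shControl of the 9 genes tested while Hey2 holds the same motif. The sequences are from RefSeq, build GRCm38.p6, and run from 250 bases before to 50 bases after the annotated start, on the gene's own strand. Capitals mark the RBPJ core GTGGGAA, or TTCCCAC where it lies on the other strand. The Hes5 window is chr4:154960673-154960972 on the plus strand and the Hey2 window is chr10:30842734-30843033 on the minus strand.
Hes5: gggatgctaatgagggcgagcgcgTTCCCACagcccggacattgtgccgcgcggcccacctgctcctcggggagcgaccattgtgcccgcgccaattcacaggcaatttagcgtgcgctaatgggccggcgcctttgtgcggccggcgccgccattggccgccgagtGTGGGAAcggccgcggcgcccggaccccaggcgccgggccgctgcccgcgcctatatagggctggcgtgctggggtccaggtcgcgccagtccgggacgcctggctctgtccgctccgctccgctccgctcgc
Hey2: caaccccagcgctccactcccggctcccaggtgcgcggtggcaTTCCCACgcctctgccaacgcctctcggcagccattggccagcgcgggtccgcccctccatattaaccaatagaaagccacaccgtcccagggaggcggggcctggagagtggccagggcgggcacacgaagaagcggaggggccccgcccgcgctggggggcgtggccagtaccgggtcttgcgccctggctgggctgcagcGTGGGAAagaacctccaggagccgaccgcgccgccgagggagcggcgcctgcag
In Hes5 the cores begin 226 and 83 bases before the start, on opposite strands, and in Hey2 they begin 207 and 4 bases before it. Among all 32851 promoter windows of this length, 6.38% hold the core on either strand. The 7 genes had 8 windows in all, and no core was found in those of Notch1, Notch2, Dll1, Dll3 and Jag1. Hes1, Hey1 and Heyl had no window in the reference used and were not searched. The Hes and Hey binding motif CACGTG was in none of the 8 windows and is in 7.15% of all promoters. The N box CACNAG, the site of Hes proteins, was in windows of Notch1, Notch2 and Dll1, and is in 42.48% of all promoters. These matches describe letters and say nothing of binding in these cells.

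Per kilobase of merged exons, Hey1 had the highest level of the 10 in all 5 groups and Heyl the lowest. Hey1 averaged 13.0 ± 1.12 CPM per kb with shNup153-2 (SD, n = 2), 13.0 ± 1.92 with shNup153-1 (SD, n = 2) and 9.75 ± 1.68 with shControl (SD, n = 4) at basal state. Hes5, at 5.81 ± 5.07 CPM per kb, ranked 3 of 10 in basal shControl cultures beside Hes1 at 5.82 ± 1.40 and Dll1 at 4.22 ± 1.44, whose ranges overlapped with it. It ranked 9 of 10 with shNup153-2, at 0.190 ± 0.020 CPM per kb, and 8 of 10 with shNup153-1, at 0.660 ± 0.200. Heyl, a Hey relative best known from vessel smooth muscle, had 0 to 7 counts per library, was under the filter on low counts in all comparisons and was not tested.

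**Figure D1:**
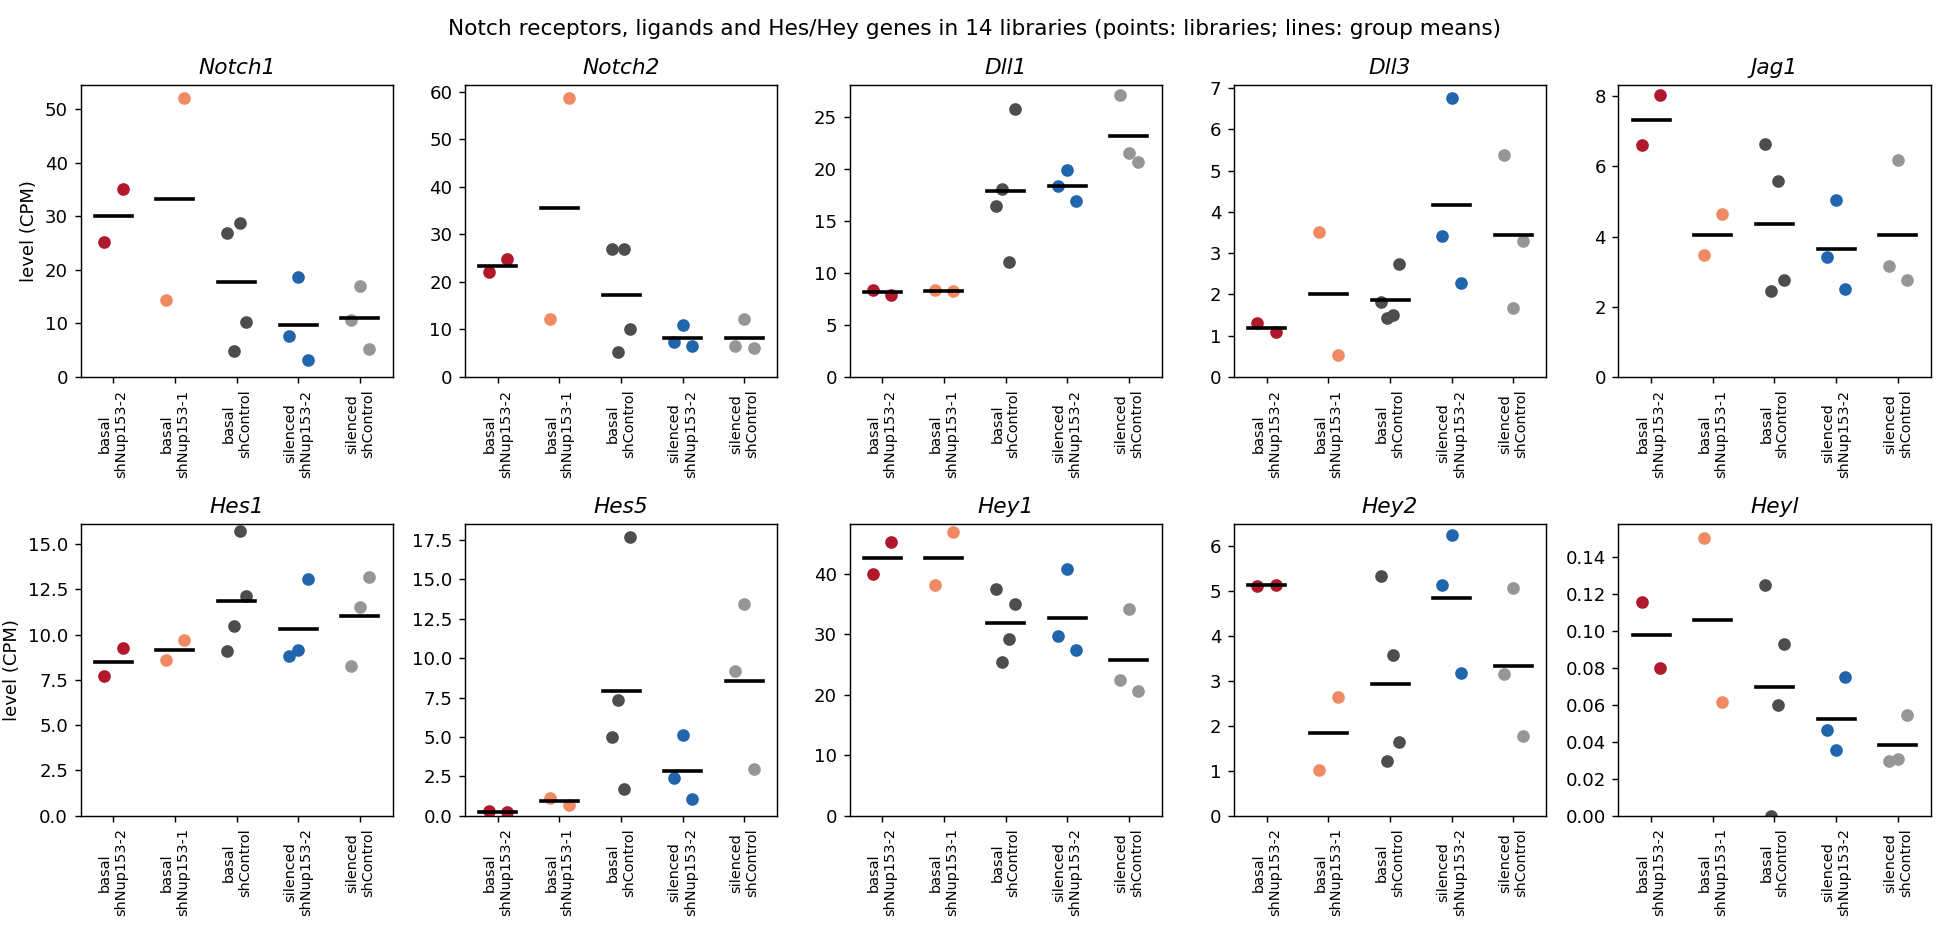
Level of each of the 10 genes in CPM (vertical axis, linear from 0) in each library, by group; points are libraries and lines are group means. Hes5 sits at 0.240 to 1.09 CPM in the 4 basal knockdown libraries and at 1.68 to 17.7 CPM in the 4 basal shControl libraries, while Notch1 and Notch2 spread widely inside groups.

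Hes5 encodes a bHLH repressor that Notch induces in neural progenitors. At basal state it stood at 0.278 and 0.240 CPM with shNup153-2, from 12 and 9 counts, and at 1.09 and 0.706 CPM with shNup153-1, from 29 and 23 counts. The 4 shControl libraries stood at 4.98, 7.35, 1.68 and 17.7 CPM, from 279, 205, 56 and 569 counts. Every knockdown library lay below every shControl library, but the shControl libraries themselves differed 10.5-fold between the highest and the lowest. The log2 fold change against shControl came to -4.95 (SE 1.03) with shNup153-2 and -3.16 (SE 0.88) with shNup153-1. Hes5 lies at chr4:154960923-154962371 (mm10, plus strand), and 31.8% of its exon bases overlap the antisense gene Gm20421. That gene stood at 0.232 to 0.373 CPM in basal shNup153-2 libraries and 0.143 to 0.373 CPM in basal shControl libraries. The strand setting of the counting is not known here, so the few Hes5 counts left with shNup153-2 cannot be told apart from antisense reads.

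Hes1, the sister repressor that many cell types express, showed no such gap. It stood at 7.72 and 9.24 CPM with shNup153-2, 8.59 and 9.71 CPM with shNup153-1 and 9.09 to 15.7 CPM (median 11.3) with shControl. The knockdown libraries were in the lower part of the shControl range or just under it, at log2 fold changes of -0.51 (SE 0.27) with shNup153-2 and -0.40 (SE 0.26) with shNup153-1. The count of Hes5 per count of Hes1 was 0.0360 and 0.0259 with shNup153-2, 0.127 and 0.0728 with shNup153-1 and 0.548, 0.700, 0.107 and 1.46 with shControl. The ranges of shNup153-1 and shControl overlapped on this ratio through shControl replicate 3.

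Hey1, a Hey repressor and the most abundant of the 10 per kilobase, stood at 40.0 and 45.2 CPM with shNup153-2, 38.1 and 47.0 CPM with shNup153-1 and 37.5, 25.5, 29.3 and 35.1 CPM with shControl. All 4 knockdown libraries lay above all 4 shControl libraries, by a margin of under 1 CPM at the nearest. On the log2 scale the fold change was 0.39 with both hairpins (SE 0.20 each). Hey2 stood at 5.10 and 5.14 CPM with shNup153-2, 1.02 and 2.64 CPM with shNup153-1 and 5.32, 1.22, 3.57 and 1.65 CPM with shControl. Log2 fold changes of Hey2 were 0.76 (SE 0.53) with shNup153-2 and -0.71 (SE 0.63) with shNup153-1, and both hairpins overlapped the shControl range. With shNup153-2, Hes5 lay below the shControl range and Hey2 inside it. The promoter windows of both hold a pair of RBPJ cores, and the part of RBPJ in their levels was not tested.

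Among the ligands, Dll1, the main Delta ligand of cortical progenitors, stood apart from shControl. It measured 8.39 and 7.91 CPM with shNup153-2, 8.32 and 8.26 CPM with shNup153-1, and 16.4, 18.0, 11.1 and 25.8 CPM with shControl. All 4 knockdown libraries were lower than all 4 shControl libraries and differed from one another by less than 0.5 CPM. On the log2 scale the fold change was -1.16 (SE 0.34) with shNup153-2 and -1.13 (SE 0.32) with shNup153-1. Dll1 lies at chr17:15367354-15376872 (mm10, minus strand), and 20.5% of its exon bases overlap the antisense gene A930024N18Rik, which has no value at basal state here.

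Dll3, a Delta relative that acts inside the cell and does not activate Notch on neighbours, stood at 1.30 and 1.09 CPM with shNup153-2, 3.50 and 0.522 CPM with shNup153-1 and 1.43 to 2.73 CPM (median 1.66) with shControl. The shNup153-2 libraries lay just below the shControl range, and those of shNup153-1 lay on both sides of it. Jag1, a Jagged ligand, stood at 6.61 and 8.04 CPM with shNup153-2, 3.46 and 4.64 CPM with shNup153-1 and 2.44 to 6.64 CPM (median 4.17) with shControl. Log2 fold changes against shControl were -0.68 (SE 0.38) for Dll3 and 0.72 (SE 0.42) for Jag1 with shNup153-2, and 0.06 (SE 0.63) for Dll3 and -0.14 (SE 0.44) for Jag1 with shNup153-1.

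The receptors varied widely between libraries of the same group, above all with shNup153-1 and shControl. Notch1 stood at 25.2 and 35.0 CPM with shNup153-2, 14.3 and 52.1 CPM with shNup153-1 and 26.9, 4.80, 28.7 and 10.2 CPM with shControl. Notch2 stood at 22.0 and 24.7 CPM with shNup153-2, 12.3 and 58.8 CPM with shNup153-1 and 26.9, 5.30, 26.9 and 10 CPM with shControl. Libraries high in one receptor were high in the other, and both hairpins overlapped shControl. Log2 fold changes with shNup153-2 were 0.74 (SE 0.60) for Notch1 and 0.41 (SE 0.57) for Notch2. With shNup153-1 they were 0.88 (SE 0.69) for Notch1 and 1.01 (SE 0.70) for Notch2. Without shNup153-1 replicate 2, the values with that hairpin turned, to -0.35 for Notch1 and -0.53 for Notch2.

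The summed level of 16 astrocyte markers moved with the receptors from library to library. It was 2880 and 3276 CPM with shNup153-2, 1687 and 3829 CPM with shNup153-1 and 3182, 706, 2158 and 1612 CPM with shControl, in the order of the receptor values above. In silenced cultures it was 602.7, 1804 and 307.6 CPM with shNup153-2 and 650.3, 1680 and 314.8 CPM with shControl. None of the 16 markers was at 0 across a group. In the basal comparisons with shControl, 0 of 16 astrocyte markers passed with shNup153-2 at a Benjamini-Hochberg (BH) adjusted p below 0.05 by edgeR's quasi-likelihood test, and 2 of 16, Acsbg1 and S100b, rose with shNup153-1. For shNup153-2 the count was also 0 at an unadjusted p below 0.05, with DESeq2 and with limma-voom. In bulk RNA, fewer cells of a type and less RNA per cell cannot be told apart. The part of astrocytes in the receptor levels was not tested.

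**Figure D2:**
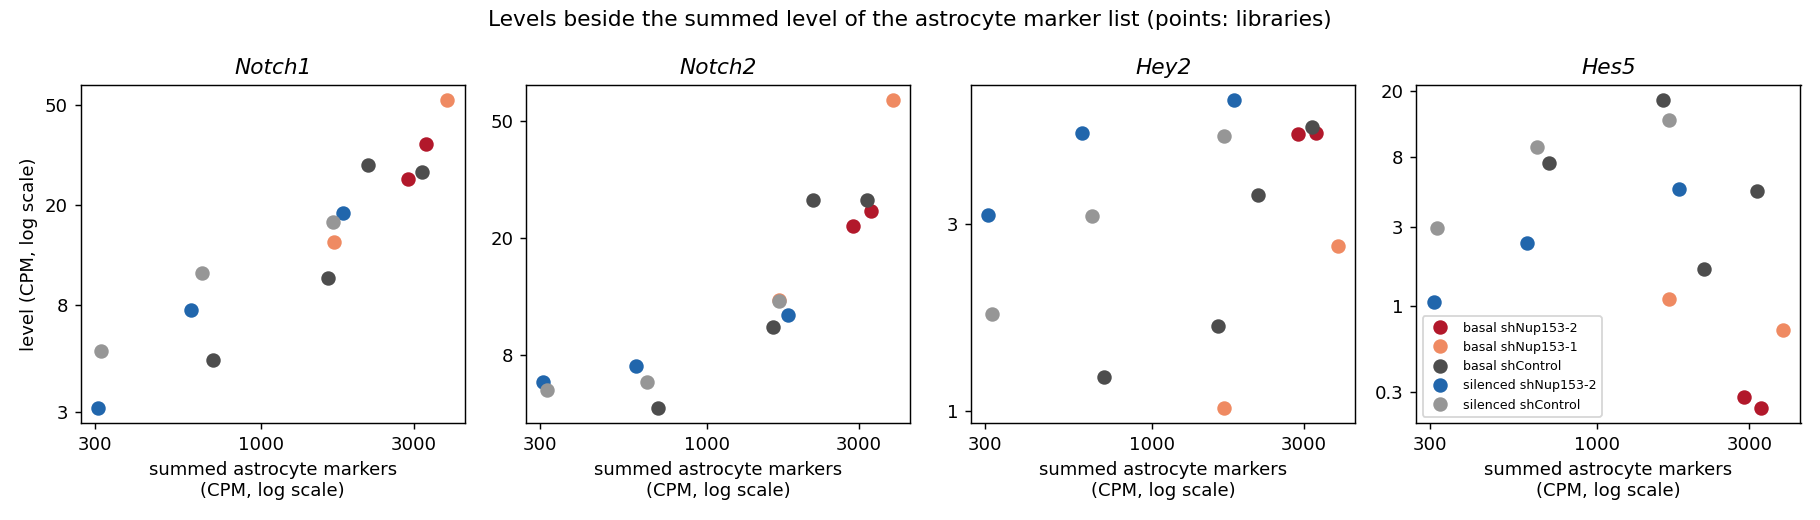
Levels of Notch1, Notch2, Hey2 and Hes5 (vertical axes, CPM, log scale) against the summed level of 16 astrocyte markers (horizontal axes, CPM, log scale) in 14 libraries, coloured by group. Notch1 is at most 10.7 CPM and Notch2 at most 7.34 CPM in the 5 libraries whose astrocyte sum is under 1000 CPM, while Hes5 is lowest in the 2 basal shNup153-2 libraries, whose astrocyte sums are 2880 and 3276 CPM.

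Markers of other cells differed as well. With shNup153-1, 11 of 14 tested oligodendrocyte lineage markers rose, and their list of 14 genes summed to 803 and 819 CPM, against 115 to 287 CPM with shControl. With shNup153-2 the same sum was 255 and 384 CPM and 0 of 9 tested markers passed in edgeR (2 at an unadjusted p below 0.05, 0 with DESeq2 and with limma-voom). Endothelial markers fell in 2 of 5 tested with shNup153-2 (Egfl7 and Kdr) and in 3 of 5 with shNup153-1 (Egfl7, Flt1 and Kdr). Their sum over 8 genes was 9.44 and 10.8 CPM with shNup153-2, 7.40 and 10.2 CPM with shNup153-1 and 17.9 to 33.6 CPM with shControl, and Erg was at 0 in both shNup153-1 libraries. Of 13 radial glia and progenitor markers, 1 fell with shNup153-2 (Tnc) and with shNup153-1 2 rose (Fabp7 and Vim) and 1 fell (Tnc). That list summed to 644 to 1030 CPM with shNup153-2, 1117 to 1183 CPM with shNup153-1 and 519 to 742 CPM with shControl. The 7 GABAergic neuron markers summed to 1288 and 1221 CPM with shNup153-2, 2059 and 1367 CPM with shNup153-1 and 672 to 1146 CPM with shControl. Every knockdown library lay above every shControl library on that sum. In edgeR 0 of 7 passed with shNup153-2 (3 at an unadjusted p below 0.05, 1 with DESeq2). With shNup153-1, 1 of 7 passed (5 at an unadjusted p below 0.05, 4 with DESeq2). Among 7 glutamatergic neuron markers, 1 rose (Slc17a7) and 1 fell (Slc17a6) with shNup153-2, and 2 fell (Slc17a6 and Tbr1) with shNup153-1. With shNup153-2, 1 of 9 mural and fibroblast markers (Col1a1) and 1 of 4 microglia markers (P2ry12) rose. With shNup153-1, 0 of 9 and 0 of 4 passed in edgeR (1 and 2 at an unadjusted p below 0.05, 1 and 0 with DESeq2). Hes5, Dll1 and the Hey genes are expressed in some of these cell types, and the part of these cells in their levels was not tested.

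The median log2 fold change of the 9 genes that passed the filter on low counts was 0.39 with shNup153-2 and -0.14 with shNup153-1, against -0.03 and -0.02 over all genes tested, and both comparisons share the 4 shControl libraries. Since these contrasts were used in choosing the genes, nothing is read from those medians. With libraries left out in turn, Hes5 ran from -5.28 to -4.19 on the log2 scale with shNup153-2, and from -3.50 to -2.37 with shNup153-1. These ranges come from libraries the gene was selected on, and nothing is read from them either.

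**Figure D3:**
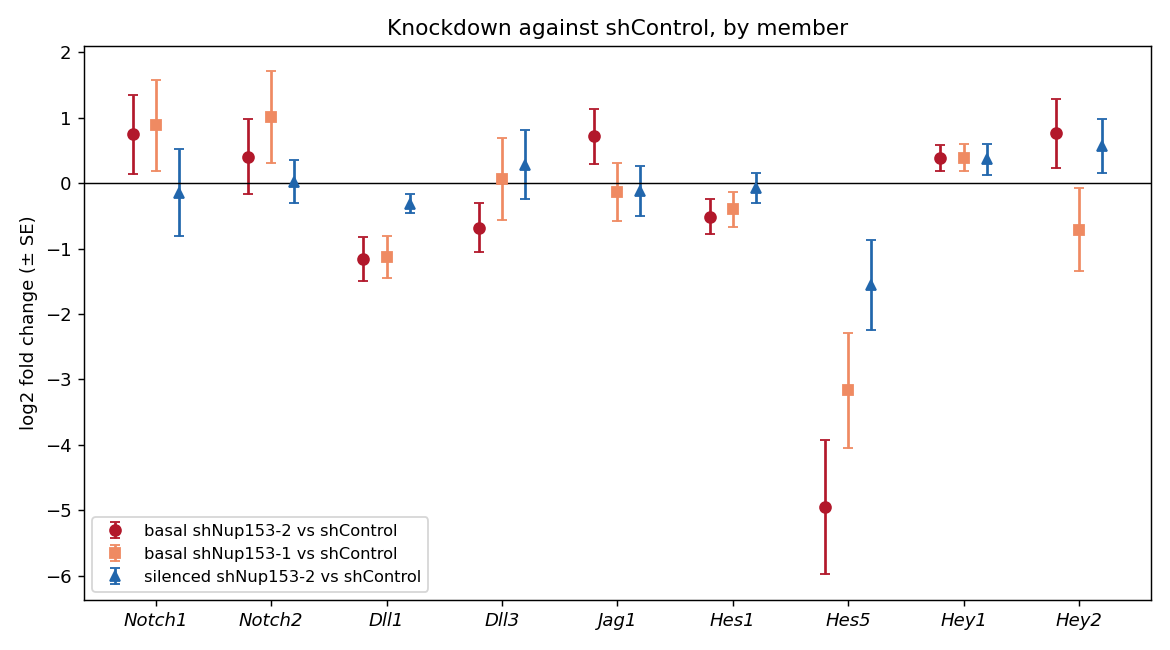
Log2 fold change of knockdown against shControl (vertical axis, error bars are SE) for the 9 genes tested, for both hairpins at basal state and for shNup153-2 in silenced cultures. Hes5 is at -4.95, -3.16 and -1.56 and Dll1 at -1.16, -1.13 and -0.31, while Hey1 is between 0.37 and 0.39 in all 3 comparisons.

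The silenced cultures are separate libraries and were not among the contrasts named above. Earlier results of these data were known when the genes were chosen, so the p-values below are not shown to be free of selection. In silenced cultures Hes5 stood at 2.41, 5.13 and 1.05 CPM with shNup153-2 and 9.17, 13.4 and 2.97 CPM with shControl. The groups overlapped, because shControl replicate 3 lay below shNup153-2 replicate 2, but within each replicate number the knockdown library was lower, with log2 ratios of -1.93, -1.39 and -1.50. The log2 fold change was -1.56 (SE 0.69) and did not pass (adjusted p = 0.272 in edgeR). Residuals of silenced libraries with equal replicate numbers correlated at 0.294 to 0.616, and those with unequal numbers at -0.59 to 0.062. The labels do not say what the numbers share. With replicate number as a block Hes5 was lower by the test (log2 fold change -1.58, SE 0.17, adjusted p = 0.00145 in edgeR). That was the 1 of 12 alternative fits in which Hes5 passed.

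Hey1 and Hey2 lay on the other side. Hey1 stood at 29.7, 40.9 and 27.4 CPM with shNup153-2 and 22.4, 34.3 and 20.6 CPM with shControl, and Hey2 at 5.14, 6.23 and 3.16 CPM with shNup153-2 and 3.15, 5.06 and 1.77 CPM with shControl. Both were higher in the knockdown library in 3 of 3 replicate numbers, while the group ranges overlapped. Without the block the log2 fold changes were 0.37 (SE 0.23, adjusted p = 0.449 in edgeR) for Hey1 and 0.57 (SE 0.42, adjusted p = 0.514 in edgeR) for Hey2. With the replicate block they were 0.38 (SE 0.08, adjusted p = 0.0154 in edgeR) and 0.62 (SE 0.17, adjusted p = 0.0381 in edgeR). For both genes, too, the block was the 1 of 12 alternative fits that passed.

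Dll1 stood at 18.3, 19.9 and 16.9 CPM with shNup153-2 and 27.1, 21.5 and 20.7 CPM with shControl. All 3 knockdown libraries were below all 3 shControl libraries, yet the difference did not pass without the block (log2 fold change -0.31, SE 0.15, adjusted p = 0.298 in edgeR) or with it (adjusted p = 0.0911 in edgeR). The other genes overlapped between groups. Hes1 stood at 8.82, 9.13 and 13.1 CPM with shNup153-2 and 8.28, 11.6 and 13.2 CPM with shControl (log2 fold change -0.07, SE 0.23). Jag1 stood at 3.42, 5.03 and 2.51 CPM with shNup153-2 and 3.15, 6.18 and 2.75 CPM with shControl (log2 fold change -0.12, SE 0.39).

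Dll3 was uneven, at 3.42, 6.76 and 2.28 CPM with shNup153-2 and 5.37, 1.68 and 3.30 CPM with shControl. The receptors again followed the replicate number. Notch1 stood at 7.59, 18.6 and 3.11 CPM with shNup153-2 and 10.7, 17.0 and 5.24 CPM with shControl. Notch2 stood at 7.34, 10.9 and 6.50 CPM with shNup153-2 and 6.49, 12.3 and 6.11 CPM with shControl. Replicate 2 was highest and replicate 3 lowest for both receptors and for the astrocyte sum, with either hairpin.

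In all, 0 of 9 genes passed in silenced cultures with edgeR, where 1.61% of the 18965 genes tested were called higher and 1.83% lower. At an unadjusted p below 0.05 the count was 0 of 9, and it was 0 of 9 with DESeq2 and with limma-voom. With the replicate block 3 of 9 passed, Hey1 and Hey2 higher and Hes5 lower, where 11.7% of all genes tested were called higher and 10.3% lower. Median log2 fold change of the 9 genes was -0.07, against 0.01 over all genes tested. Of the marker lists, 1 of 13 radial glia and progenitor markers (Tnc) fell, and 0 of 15 astrocyte and 0 of 14 oligodendrocyte lineage markers passed in edgeR, at an unadjusted p below 0.05, with DESeq2 or with limma-voom. Of 4 endothelial markers, 0 passed in edgeR and with limma-voom, and 1 at an unadjusted p below 0.05 and with DESeq2. With the replicate block, 2 of 13 radial glia and progenitor markers (Fabp7 and Tnc) and 1 of 4 endothelial markers (Egfl7) fell, 3 of 15 astrocyte markers (Aldh1l1, S100b and Slc1a2) rose and 1 (Acsbg1) fell, and 0 of 14 oligodendrocyte lineage markers passed in edgeR. Among 7 glutamatergic neuron markers, 1 fell (Slc17a6) without the block, and with it 1 rose (Slc17a7) and 2 fell (Slc17a6 and Tbr1). The radial glia and progenitor sum was 365.0, 656.4 and 227.9 CPM with shNup153-2 and 542.5, 873.1 and 333.0 CPM with shControl. The endothelial sum was 8.38, 8.39 and 8.33 CPM with shNup153-2 and 12.97, 10.82 and 11.73 CPM with shControl. Both sums were lower with shNup153-2 in 3 of 3 replicate numbers, as Hes5 was, and their part in the Hes5 level was not tested.

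**Figure D4:**
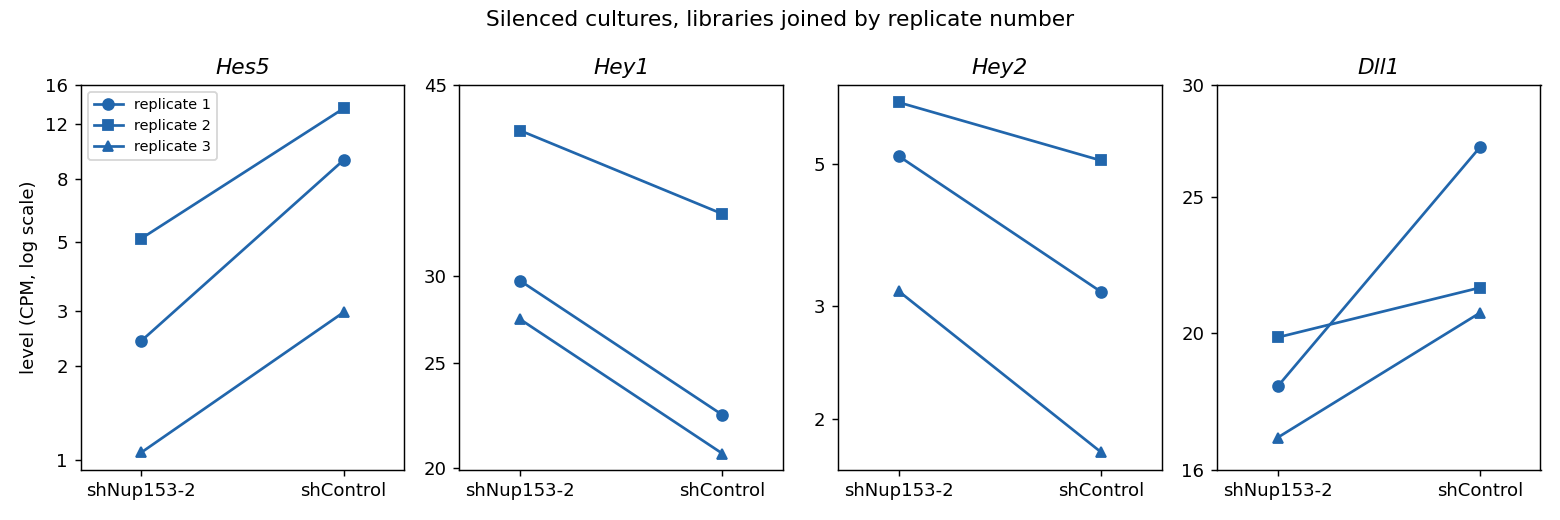
Levels of Hes5, Hey1, Hey2 and Dll1 (vertical axes, CPM, log scale) in silenced cultures, with libraries of the same replicate number joined from shNup153-2 (left) to shControl (right). In all 3 lines Hes5 and Dll1 are lower, and Hey1 and Hey2 higher, at shNup153-2.

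The hairpins were then set against each other at basal state. Of 9 genes, 0 passed in edgeR, where 2.81% of 14529 genes were called higher and 1.67% lower with shNup153-2 than with shNup153-1, and 0 passed at an unadjusted p below 0.05, with DESeq2 or with limma-voom. Hes5 was 0.278 and 0.240 CPM with shNup153-2 and 1.09 and 0.706 CPM with shNup153-1, without overlap, for a log2 difference of -1.78 (SE 1.01, adjusted p = 0.292 in edgeR). Hey2 and Jag1 did not overlap either, and were higher with shNup153-2, by 1.46 (SE 0.72, adjusted p = 0.233 in edgeR) and 0.84 (SE 0.50, adjusted p = 0.314 in edgeR) on the log2 scale. For Dll1 the log2 difference was -0.03 (SE 0.35, adjusted p = 0.962 in edgeR). These p-values miss the threshold with 2 libraries a hairpin and do not show that the hairpins act alike. The libraries are those the genes were selected on, so nothing is read from these differences.

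Silenced cultures were next compared with basal ones. The states stand in separate tables, so state and table cannot be told apart. The basal shControl libraries are those the low Hes5 level was set against when the genes were chosen. Values of the 9 genes with shControl therefore carry that selection too. With shControl, 0 of 9 genes passed in edgeR, where 6.09% of 20926 genes were called higher and 6.27% lower in silenced cultures. The count was 1 of 9 at an unadjusted p below 0.05, and 0 with DESeq2 and with limma-voom. Hes5 had 8.53 ± 5.26 CPM in silenced shControl cultures (SD, n = 3) and 7.92 ± 6.91 CPM in basal ones (SD, n = 4), and Dll1 23.1 ± 3.48 and 17.8 ± 6.07 CPM. Notch2 had 8.28 ± 3.44 CPM in silenced and 17.3 ± 11.3 CPM in basal shControl cultures, with a log2 fold change of -1.12 (SE 0.49, adjusted p = 0.161 in edgeR). Without basal shControl replicate 2, 1 of the 9 genes passed, Notch2, where 3426 of all 21035 genes tested were called.

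With shNup153-2 the comparison reuses the basal libraries whose low Hes5 level entered the choice of genes, so its values are a description without a test. Hes5, Dll1 and Dll3 were above basal levels in silenced cultures, at log2 fold changes of 3.40 (SE 1.08), 1.14 (SE 0.29) and 1.76 (SE 0.55). Hes5 averaged 2.87 ± 2.08 CPM in silenced (SD, n = 3) and 0.259 ± 0.027 CPM in basal shNup153-2 cultures (SD, n = 2). Dll1 averaged 18.3 ± 1.50 CPM in silenced and 8.15 ± 0.34 CPM in basal cultures, and Dll3 4.16 ± 2.33 and 1.20 ± 0.15 CPM. None of the 3 overlapped between the states. Notch1, Notch2 and Jag1 lay below basal levels without overlap, at 9.76 ± 7.96, 8.26 ± 2.36 and 3.65 ± 1.28 CPM in silenced and 30.1 ± 6.94, 23.4 ± 1.93 and 7.32 ± 1.01 CPM in basal cultures. The astrocyte sum was 307.6 to 1804 CPM in these silenced libraries and 2880 to 3276 CPM in the basal ones, and 2 of 16 astrocyte markers, Gfap and Slc1a2, fell. Of 15 oligodendrocyte lineage markers 6 rose (among them Gpr17, Pdgfra and Sox10) and 1 fell (Cnp), at a median log2 fold change of 1.54. Of 13 radial glia and progenitor markers 2 rose (Mki67 and Top2a) and 3 fell (Emx2, Tnc and Vim), and of 7 GABAergic neuron markers 4 fell (Dlx2, Dlx5, Gad1 and Gad2). Between the states with shControl, 4 of 15 oligodendrocyte lineage markers (Gpr17, Mag, Pdgfra and Sox10) and 2 of 13 radial glia and progenitor markers (Mki67 and Top2a) rose, while 1 of 16 astrocyte markers (Gfap), 4 of 7 GABAergic neuron markers and 3 of 5 endothelial markers (Egfl7, Flt1 and Kdr) fell and 1 (Pecam1) rose. The part of these cells in the levels of the 9 genes was not tested.

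Whether the effect of shNup153-2 differed between the states was tested as an interaction, which again uses basal libraries the genes were selected on, and 0 of 9 genes passed in edgeR, as did 0 of all 20926 genes tested. At an unadjusted p below 0.05 the counts were 2 of 9 and 2393 of all genes, and over all genes DESeq2 called 285 and limma-voom 1, none of them among the 9. Hes5 had the largest difference of the 9, with a log2 fold change less negative by 3.35 in silenced cultures (SE 1.27, adjusted p = 0.375 in edgeR). For Dll1 the difference was 0.82 (SE 0.37, adjusted p = 0.428 in edgeR) and for Hey1 -0.05 (SE 0.33, adjusted p = 0.953 in edgeR). Hes5 was chosen partly on its low basal level, so a smaller gap in other libraries can follow from that choice. Nothing is read from these differences.

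Around these genes, 64 others of the pathway were listed by role, of which 59 were tested with shNup153-2 at basal state and 58 with shNup153-1. With shNup153-2, 10 rose and 5 fell at basal state, a median log2 fold change of 0.24, where 5.91% of the 19682 genes tested were called higher and 3.64% lower. With shNup153-1, 9 rose and 5 fell, a median of 0.11, where 6.52% of 14529 genes were called higher and 7.05% lower. In silenced cultures 3 of 59 rose and 3 fell, a median of 0.05, where 1.61% of all genes were called higher and 1.83% lower. With the replicate block 10 rose and 4 fell, where 11.7% of all genes were called higher and 10.3% lower. The basal count with shNup153-2 was 0 without either of its libraries and 6 without shControl replicate 4. With shNup153-1 the count was 4 without replicate 1 of that hairpin, 6 without its replicate 2 and 8 without shControl replicate 4. In silenced cultures it was 0 without shNup153-2 replicate 1 and 1 without shControl replicate 1.

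Of 14 regulators of trafficking and turnover, 4 rose and 1 fell with shNup153-2 at basal state, 3 of 13 tested rose and 0 fell with shNup153-1, and 1 rose and 1 fell in silenced cultures. Neurl1a, a Neuralized ubiquitin ligase, averaged 62.8 ± 2.32 CPM with shNup153-2 (n = 2), 47.7 ± 1.89 CPM with shNup153-1 (n = 2) and 12.6 ± 3.30 CPM with shControl (n = 4; SD) at basal state. It rose with both hairpins, by 2.29 (SE 0.25, adjusted p = 0.00475 in edgeR) and 1.90 (SE 0.23, adjusted p = 0.00279 in edgeR) on the log2 scale. In silenced cultures it rose by 1.38 (SE 0.14, adjusted p = 0.00915 in edgeR), to 108 ± 18.5 CPM with shNup153-2, against 42.0 ± 1.89 CPM with shControl. Mib1, the ubiquitin ligase that lets Delta and Jagged ligands signal, fell with shNup153-2 in silenced cultures to 40.4 ± 4.03 CPM, against 137.6 ± 17.3 CPM with shControl (log2 fold change -1.75, SE 0.13, adjusted p = 0.0063 in edgeR). At basal state it fell with shNup153-2 as well (-1.39, SE 0.31, adjusted p = 0.0322 in edgeR), and with shNup153-1 the value was -0.40 (SE 0.31, adjusted p = 0.424 in edgeR). Neurl1b rose with shNup153-2 at basal state (1.30, SE 0.20, adjusted p = 0.00991 in edgeR). Its values were -0.15 (SE 0.33, adjusted p = 0.813 in edgeR) with shNup153-1 and 0.27 (SE 0.19, adjusted p = 0.508 in edgeR) in silenced cultures.

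Of the modifiers and proteases, Rfng, a Fringe enzyme that adds sugars to Notch, averaged 79.6 ± 0.43 CPM with shNup153-2, 85.1 ± 14.3 CPM with shNup153-1 and 24.4 ± 6.94 CPM with shControl at basal state. It rose with both, by 1.67 (SE 0.27, adjusted p = 0.0115 in edgeR) and 1.78 (SE 0.26, adjusted p = 0.00497 in edgeR), and in silenced cultures by 1.25 (SE 0.13, adjusted p = 0.00915 in edgeR). Aph1b, a gamma-secretase subunit, fell by 1.62 (SE 0.23, adjusted p = 0.00697 in edgeR), 1.09 (SE 0.21, adjusted p = 0.0125 in edgeR) and 1.24 (SE 0.13, adjusted p = 0.00915 in edgeR) in the same 3 comparisons. Aph1c is a near copy of Aph1b, so the split of reads between them is uncertain. Adam10, the protease that makes the first cut after ligand binding, fell with shNup153-1 (-1.62, SE 0.22, adjusted p = 0.00405 in edgeR). Its value with shNup153-2 was 0.46 (SE 0.19, adjusted p = 0.148 in edgeR), and it was the 1 of 58 pathway genes past the threshold between the hairpins (2.09, SE 0.24, adjusted p = 0.00815 in edgeR). It stood at 186 and 213 CPM with shNup153-2 and 37.8 and 55.4 CPM with shNup153-1.

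In the nucleus, Rbpj, the DNA-binding factor of the pathway, fell in silenced cultures to 11.9 ± 0.68 CPM with shNup153-2, against 22.1 ± 3.04 CPM with shControl (-0.88, SE 0.14, adjusted p = 0.0305 in edgeR). Its basal averages were 11.3 ± 1.18 CPM with shNup153-2, 13.9 ± 0.97 CPM with shNup153-1 and 20.2 ± 2.47 CPM with shControl. Tle1, a Groucho corepressor of Hes proteins, fell at basal state with shNup153-2 (-1.09, SE 0.19, adjusted p = 0.0156 in edgeR) and with shNup153-1 (-1.30, SE 0.21, adjusted p = 0.00745 in edgeR), and its silenced value was -0.45 (SE 0.14, adjusted p = 0.146 in edgeR). Maml3, a Mastermind coactivator, rose at basal state with shNup153-2 (1.72, SE 0.28, adjusted p = 0.0126 in edgeR) and with shNup153-1 (1.36, SE 0.28, adjusted p = 0.0165 in edgeR), while its silenced value was 0.01 (SE 0.21, adjusted p = 0.983 in edgeR).

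Each of the 6 pathway genes past the threshold in silenced cultures, among them Neurl1a, Rfng, Aph1b, Mib1 and Rbpj, also passed in the same direction with shNup153-2 at basal state, as 6 of the 15 called there. These comparisons share no library. Over all genes tested in both, 397 of the 646 called in silenced cultures passed in the same direction at basal state (61.5%), and they were 22.1% of the 1793 called there. Leaving out 1 library at a time, Neurl1a and Rfng passed in 6 of 6 refits with shNup153-1, 4 of 6 with shNup153-2 at basal state and 4 of 6 in silenced cultures. Their calls were lost without either basal shNup153-2 library, and without silenced shNup153-2 replicate 1 or shControl replicate 1. At basal state with shNup153-2 the call of Mib1 was lost also without shControl replicate 3 and that of Tle1 without shControl replicate 4, and Rbpj held in 1 of 6 refits. In silenced cultures the call of Mib1 was lost without shNup153-2 replicate 1, that of Aph1b also without shControl replicate 1, and that of Rbpj held in 1 of 6 refits. With shNup153-1, Adam10 passed in 6 of 6 refits, Tle1 was lost without shNup153-1 replicate 1, and Aph1b and Maml3 without either shNup153-1 library. The Adam10 difference between the hairpins held in 1 of 4 refits, the one without shNup153-1 replicate 2.

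**Figure D5:**
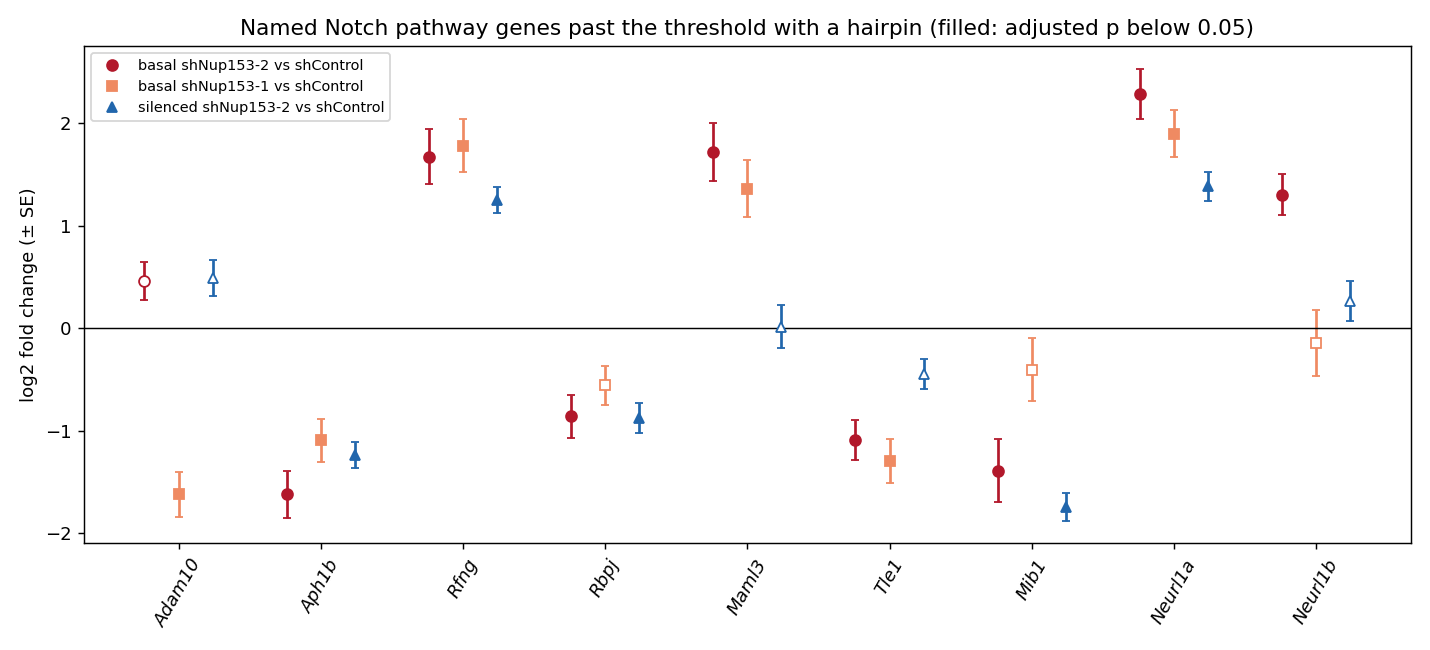
Log2 fold change against shControl (vertical axis, error bars are SE) for the other Notch pathway genes named above that passed the threshold in at least 1 of the 3 comparisons, ordered by role; filled symbols have an edgeR BH-adjusted p below 0.05. Neurl1a and Rfng are high and Aph1b is low in all 3 comparisons, and Adam10 differs between the hairpins at basal state.

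Between states, 9 of 59 other pathway genes were higher and 1 lower in silenced than in basal shControl cultures, a median log2 fold change of 0.08, where 6.09% of all genes were called higher and 6.27% lower. Neurl1a (1.69, SE 0.19, adjusted p = 0.000561 in edgeR), the Deltex regulator Dtx1 (1.38, SE 0.20, adjusted p = 0.00196 in edgeR) and Rfng (1.23, SE 0.20, adjusted p = 0.0034 in edgeR) were among those higher. The corepressor Tle4 was lower (-1.35, SE 0.21, adjusted p = 0.0033 in edgeR), while its relatives Tle2 (1.18, SE 0.25, adjusted p = 0.0111 in edgeR) and Tle3 (1.27, SE 0.27, adjusted p = 0.0109 in edgeR) were higher. These 6 calls held in 7 of 7 refits without 1 library, except that of Tle3, which was lost without silenced shControl replicate 3. With shNup153-2, 8 were higher and 7 lower in silenced cultures, where 9.39% of all genes were called higher and 12.3% lower. Among them were the ligand Dll4 (1.88, SE 0.42, adjusted p = 0.0122 in edgeR), Hes6, a relative that counters Hes1 (1.24, SE 0.20, adjusted p = 0.00279 in edgeR), and Maml3 (-1.70, SE 0.29, adjusted p = 0.00358 in edgeR). Of these, Maml3 and Hes6 passed in 5 of 5 refits without 1 library, and Dll4 was lost without basal shNup153-2 replicate 1. In the interaction 0 of 59 passed in edgeR and 12 had an unadjusted p below 0.05, while DESeq2 called 2 and limma-voom 0.

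By Pearson correlation of log2 CPM over the 12 libraries of the 4 groups without shNup153-1, the genes most like Hes5 among 15593 were Pgrmc1 (0.956), Hmx1 (0.950), Necab2 (0.949), Vmac (0.942) and Pnck (0.941). Pgrmc1, a membrane-bound haem-binding protein, stood at 268 to 275 CPM with shNup153-2 and 444 to 700 CPM with shControl at basal state, and at 362 to 423 and 469 to 603 CPM in the silenced counterparts. With shNup153-1, which the ranking did not use, it stood at 469 to 836 CPM, inside and above the shControl range, whereas Hes5 was below it. Necab2, a neuronal calcium-binding protein, stood at 20.3 to 21.3 CPM with shNup153-2, 23.5 to 35.0 CPM with shNup153-1 and 43.0 to 65.1 CPM with shControl at basal state. These libraries share hairpins and tables, so the ranking describes the groups as much as single libraries.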

How the data were processed

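Poly(A) RNA-seq libraries from 16 labelled samples were made with a strand-marking kit, per the labels' protocols. The authors deposited raw gene counts, made with featureCounts 2.0.1 on mm10 after FastQC, per the submitters' processing notes. Not given in the sources used here are the aligner, the annotation and the strand setting. In the table of basal cultures, 2 columns of per-sample values share a name and were not used, which left 14 libraries.

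The genes and lists were chosen with earlier results of these data known. Genes were kept by filterByExpr (minimum count 10), scaled by TMM and tested in edgeR 4.0.16 (R 4.3.3) with the quasi-likelihood F test and BH adjustment over all genes at 0.05. Basal shNup153-2 was fitted with shControl only, over all lines. Comparisons with shNup153-1 used the 3 basal groups up to line 16399. Silenced groups had their own fit, and the state comparisons and interaction a joint fit without shNup153-1. The basal and silenced fits of shNup153-2 against shControl were run on simulated counts with the same spread for all genes. The other fits were not run on simulated counts. Named genes were the 10, Nup153, up to 6 other pathway genes past the threshold per comparison with the smallest p, their values elsewhere, and the 5 most like Hes5 with a mean of at least 1 CPM (prior count 2). Some genes that this rule names are not reported here. Aph1c was named for its likeness to Aph1b, and neighbours and markers after their values were seen. Alternatives were RLE size factors, no filter, DESeq2 1.42.0, limma-voom (limma 3.58.1), each library left out, other sample sets and the replicate block. Residuals of libraries with equal replicate numbers correlated at 0.294, 0.573 and 0.616 in silenced cultures, so the block is given there. That equal numbers mark a shared litter is not stated in the labels. With 2 to 4 litters a group, p-values cover the spread between these litters. Coordinates are from GENCODE M21 (GRCm38/mm10), which held 98.04% of basal and 96.86% of silenced symbols.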

Additional observations from a re-analysis of the deposited data

How the results depend on the processing

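Each comparison rests on 2 to 4 libraries a group. Counts for the 9 genes in every comparison except silenced shNup153-2 against shControl use basal libraries that chose the genes, and nothing is read from them. Hes5 has 21 counts in all over the basal shNup153-2 libraries and Heyl 0 to 7 counts a library, which leaves their levels there with wide counting error. Of 756 values of single genes under alternatives, 41 changed sign, all of them in genes that did not pass. Calls moved as well. With shNup153-1 at basal state the call of Hes5 held in 4 of 12 alternatives and that of Dll1 in 2 of 12. With shNup153-2 at basal state the call of Hes5 held in 9 of 12. Dll1, not called there in the main fit, passed in 4 of 12. Between states with shNup153-2, Hes5 and Dll3 each held in 5 of 10 and Dll1 in 7 of 10.

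With DESeq2, 2 of the 9 genes were called for basal shNup153-2, and all genes called were 3624 there, 3146 for shNup153-1, 1845 in silenced cultures, 2114 between hairpins (5 other pathway genes) and 285 for the interaction (2 other pathway genes). With limma-voom, 0 of 9 were called for either basal hairpin, where 1998 of all genes were called for shNup153-2 and 1908 for shNup153-1. Limma-voom called 1 of 9 and 4983 of all genes for silenced against basal shNup153-2, and 1 of all genes for the interaction. Notch1 between hairpins was 0.09. The main fits called 1 of 9 for basal shNup153-2 and 2 of 9 for shNup153-1, where 1880 and 1971 of all genes were called. RLE size factors or no filter left 1 of 9 for shNup153-1 (1975 and 1847 of all genes). Without a filter Notch2 in silenced cultures was -0.00 and the interaction had 3 genes. Fitted with all 3 basal groups, shNup153-2 had 2 of 9 and 1812 of all genes. Fitted with shControl only, shNup153-1 had 0 of 9, 8 other pathway genes and 1203 genes. The replicate block gave 3 of 9 and 2145 of all genes for basal shNup153-2. For shNup153-1 it gave 0 of 9, 0 other pathway genes and 0 genes. Between hairpins it gave 0 other pathway genes and 0 genes, and for the interaction 2 genes. In silenced cultures it gave 3 of 9, 14 other pathway genes and 4161 genes. Basal residuals of shNup153-2 and shControl correlated at 0.235 and 0.052 for equal numbers and at -0.235 to 0.149 for others. The residuals of the 2 shNup153-2 libraries mirror each other, so these values cannot decide whether the numbers pair libraries there. For shNup153-1 pairing was not tested. A block across states, chosen after seeing the data, put Hey2 at -0.16 with shControl and 0.05 with shNup153-2, and changed no call of the 9. The cause of these shifts was not tested.

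With 1 library left out, the number of the 9 genes called ran from 0 to 2 for basal shNup153-2, 0 to 2 for basal shNup153-1, 0 to 0 for silenced shNup153-2, 0 to 0 for the hairpins against each other, 0 to 1 for state with shControl, 0 to 3 for state with shNup153-2, 0 to 0 for the interaction. With 1 library left out, the number of the other pathway genes called ran from 0 to 14 for basal shNup153-2, 4 to 13 for basal shNup153-1, 0 to 6 for silenced shNup153-2, 0 to 2 for the hairpins against each other, 8 to 13 for state with shControl, 4 to 15 for state with shNup153-2, 0 to 0 for the interaction. With 1 library left out, the number of all genes called ran from 15 to 2211 for basal shNup153-2, 356 to 2050 for basal shNup153-1, 4 to 659 for silenced shNup153-2, 0 to 500 for the hairpins against each other, 1069 to 3426 for state with shControl, 841 to 4003 for state with shNup153-2, 0 to 12 for the interaction. Nup153 ran from -2.08 to -1.36 with shNup153-1. For silenced shNup153-2 the log2 fold changes that turned ran from -0.27 to 0.07 (Hes1), -0.24 to 0.40 (Notch2), -0.25 to 0.74 (Dll3), -1.01 to 0.31 (Notch1), -0.42 to 0.32 (Jag1). For the hairpins against each other the log2 fold changes that turned ran from -0.25 to 0.00 (Hes1), -0.16 to 0.16 (Hey1), -0.80 to 1.08 (Notch1), -0.08 to 0.01 (Dll1), -1.55 to 1.18 (Dll3), -1.34 to 0.93 (Notch2). For state with shControl the log2 fold changes that turned ran from -0.42 to 0.85 (Hes5), -0.60 to 0.13 (Jag1), -0.31 to 0.59 (Hey2), -0.30 to 0.02 (Hes1). For state with shNup153-2 the log2 fold changes that turned ran from -0.33 to 0.11 (Hey2). For the interaction the log2 fold changes that turned ran from -0.24 to 0.18 (Hey1), -0.72 to 0.19 (Hey2).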
